A study of Mus musculus with 15 samples.

Results

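The 10 transcription factor genes Dlx1, Dlx2, Dlx5, Dlx6, Lhx6, Sox6, Nr2f2, Prox1, Satb1 and Maf, which act in the lineages that give rise to cortical interneurons, were followed across the inhibitory neurons of the mouse prefrontal cortex (PFC). They were chosen by symbol, and all 10 were found among the 26145 genes listed. RNA of single cells was counted as unique molecular identifiers (UMIs, 1 per captured transcript) in 15 libraries of C57BL/6N male mice. The methods describe pools of PFC tissue from 2 mice, but name fewer P21 mice than such pools for all 3 P21 libraries would need, so some P21 libraries may share animals. The 3 P21 libraries came from young mice of 3 weeks without self-administration. The 12 P60 libraries came from adult mice, labelled 8 to 10 weeks, that had self-administered either saline or cocaine intravenously. Each drug had 6 libraries, 2 of them at maintenance, 2 after 48 h of withdrawal and 2 after 15 d of withdrawal. The paper places catheter surgery at P60, before self-administration and withdrawal, so the saline libraries may pool several ages. No gene was altered by design in any group. Age was tested between the P21 and the saline libraries unless all 12 P60 libraries are named, while a level or share of cells given for P60 alone is over all 12. The authors had sorted the inhibitory neurons into 12 clusters at P60, named Inhib_1 to Inhib_12, and had then given each P21 cell the name of the P60 cluster it correlated with best, so that a shared name did not ensure a shared kind of cell.

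Cortical interneurons are born in the ganglionic eminences below the cortex and migrate tangentially into it. The Dlx homeobox genes act early in nearly all of these progenitors, while the later factors divide by birthplace. Lhx6, Sox6, Satb1 and Maf act in cells of the medial eminence, which become Sst (somatostatin) and Pvalb (parvalbumin) neurons, whereas Nr2f2 and Prox1 are typical of cells of the caudal eminence, which become Vip (vasoactive intestinal peptide) neurons and many Reln or Lamp5 neurons.

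The data held 35360 retained cells with 8375172 to 42892922 UMIs per library. Inhibitory neurons made up between 1.49% and 11.2% of the cells of a library, which left 1191 of them at P60 (563 in saline libraries) and 962 at P21, with as few as 19 and as many as 371 in 1 library. Their median depth per library lay between 5415 and 10257 UMIs per cell. No pair of libraries shared more than 27 cell barcodes. The tissue label and a protocol sentence name another brain region, the nucleus accumbens (NAc), where the titles and source names give the PFC. Excitatory neurons formed 25.1% to 73.8% of the cells in each library, and the striatal projection markers Drd1a, Drd2, Ppp1r1b and Adora2a summed to only 7.42 to 25.6 counts per 1000000 UMIs (CPM) in the inhibitory neurons of the P21 and saline libraries. The labels give no batch that spans the ages, and the ages were never in 1 library, so age, handling of the adult mice and any batch of library preparation cannot be told apart.

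The genes lie on 6 chromosomes in the mouse build used for counting (NCBIM37, also called mm9). Dlx1 (chr2:71366170-71372038, plus strand) and Dlx2 (chr2:71381466-71384811, minus strand) face each other across 9427 bases. Dlx6 (chr6:6813334-6818568, plus strand) and Dlx5 (chr6:6827805-6832085, minus strand) form a second such pair with a gap of 9236 bases. Each pair has a long non-coding transcript on the opposite strand of 1 of its genes: Dlx1as covers the whole of Dlx1, and Dlx6as1 covers the whole of Dlx6. How strand was used in counting is not given in the sources used here, so reads of these overlapping genes may have been divided wrongly between them.

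The 250 bases just upstream of the first RefSeq start (build GRCm38.p6) are shown for a Dlx pair and for 4 lineage factors on which the results turn. They read from 5′ to 3′ on the strand of the gene, and capitals mark the letters of a searched motif.
Dlx1 (chr2:71529195-71529444, plus strand): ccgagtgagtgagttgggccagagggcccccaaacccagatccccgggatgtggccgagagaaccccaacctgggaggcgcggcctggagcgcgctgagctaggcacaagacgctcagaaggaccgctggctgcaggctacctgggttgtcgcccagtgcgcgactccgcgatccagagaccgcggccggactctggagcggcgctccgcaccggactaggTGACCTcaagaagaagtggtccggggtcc
Dlx2 (chr2:71546755-71547004, minus strand): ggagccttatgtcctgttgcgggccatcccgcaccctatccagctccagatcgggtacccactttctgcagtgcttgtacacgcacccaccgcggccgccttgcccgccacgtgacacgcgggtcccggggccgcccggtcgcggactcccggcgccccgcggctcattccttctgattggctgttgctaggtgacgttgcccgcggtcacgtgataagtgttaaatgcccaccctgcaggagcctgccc
Lhx6 (chr2:36105409-36105658, minus strand): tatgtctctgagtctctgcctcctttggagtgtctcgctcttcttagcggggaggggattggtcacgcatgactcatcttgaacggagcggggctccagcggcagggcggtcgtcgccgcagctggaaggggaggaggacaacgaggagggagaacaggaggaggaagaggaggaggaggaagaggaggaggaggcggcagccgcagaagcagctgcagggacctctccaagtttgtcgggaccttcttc
Sox6 (chr7:116038745-116038994, minus strand): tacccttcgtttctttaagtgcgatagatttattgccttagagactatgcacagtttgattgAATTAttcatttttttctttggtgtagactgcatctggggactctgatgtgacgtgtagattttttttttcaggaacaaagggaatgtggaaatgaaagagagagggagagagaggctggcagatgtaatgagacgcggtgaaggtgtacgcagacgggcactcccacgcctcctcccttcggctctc
Satb1 (chr17:51833291-51833540, minus strand): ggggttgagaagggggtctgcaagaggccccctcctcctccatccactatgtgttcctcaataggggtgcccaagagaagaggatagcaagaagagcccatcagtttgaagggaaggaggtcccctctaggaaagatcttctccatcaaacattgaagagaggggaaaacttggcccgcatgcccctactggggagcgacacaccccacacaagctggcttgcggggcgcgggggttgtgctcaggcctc
Prox1 (chr1:190170828-190171077, minus strand): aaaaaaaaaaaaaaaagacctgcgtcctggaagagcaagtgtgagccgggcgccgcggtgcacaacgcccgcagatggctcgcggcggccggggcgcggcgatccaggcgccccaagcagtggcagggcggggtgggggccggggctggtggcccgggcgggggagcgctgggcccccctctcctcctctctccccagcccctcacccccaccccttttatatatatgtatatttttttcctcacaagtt
The capitals of Sox6 spell the homeodomain core TAATT on the other strand, and those of Dlx1 spell the nuclear receptor site AGGTCA on the other strand. Of 19 such windows that RefSeq gave for 7 of the 10 genes, 4 held TAATT on either strand (windows of Lhx6, Sox6 and Satb1), against 25.0% of 32851 mouse windows. AGGTCA stood in 4 of the 19 (Dlx1, Sox6 and Satb1), against 14.0% of all windows. The SOX core AACAAT stood in 2 (Lhx6 and Sox6) and the MAF site TGCTGA in 2 (Sox6), against 9.42% and 16.1%. The first Dlx1 and Dlx2 windows had 68.0% and 66.4% GC and that of Sox6 had 45.2%, where the median of all windows was 52.4%. Dlx5, Dlx6 and Maf had no window in the table.

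The inhibitory clusters first had to be placed by their own transmitter and peptide genes. Sst was highest in Inhib_1 and Inhib_2, with 40338 and 22921 CPM at P60. Pvalb was highest in Inhib_6 (1611 CPM), and Vip was highest in Inhib_4 (19297 CPM), Inhib_9 (17733 CPM) and Inhib_10 (6094 CPM). Lamp5 was highest in Inhib_7 (878 CPM) and Inhib_8 (708 CPM), and Reln in Inhib_5 (526 CPM). At P21 the same clusters led for Sst, Pvalb, Lamp5 and Reln, and Vip was highest in Inhib_9 (22733 CPM), Inhib_4 (21437 CPM) and Inhib_11 (10067 CPM). All levels across clusters are descriptions without a test, since the clusters had been made from the genes of these same cells. CPM here is taken on the summed UMIs of a cluster, mitochondrial and ribosomal protein genes left out, and each 95% Poisson interval covers counting error only. A low level in such a sum can mean fewer expressing cells or fewer transcripts in each, and the sum does not tell these apart.

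The Dlx genes, shared early regulators of the interneuron fate, were detected in every inhibitory cluster at P60 and, apart from Dlx6 in Inhib_4, at P21. Dlx1 was highest in the Vip clusters Inhib_4 and Inhib_9, at 339.5 CPM (95% interval 285 to 401) and 210.1 CPM, and lowest in the Pvalb cluster Inhib_6, at 30.5 CPM. Only the step from Inhib_4 to Inhib_9 separated neighbouring Dlx1 levels beyond their intervals. At P21 Inhib_9 led with 276 CPM, Inhib_4 followed with 237 CPM and Inhib_6 was again lowest at 30.8 CPM.

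Dlx2, the neighbour of Dlx1, was counted more sparsely, from 49.6 CPM in Inhib_4 (30.3 to 76.6) down to 4.4 CPM in Inhib_8. Dlx5 ranged from 244 CPM in Inhib_12 (198 to 298) and 224 CPM in Inhib_11 to 61.4 CPM in Inhib_8. Dlx6, its partner on chromosome 6, ranged from 96.9 CPM in Inhib_2 (78.9 to 118) to 16.7 CPM in Inhib_1. For Dlx2, Dlx5 and Dlx6 no neighbours in the order of P60 levels stood apart beyond their intervals. The largest step of Dlx6 was 2.13-fold, from Inhib_12 (86.5 CPM, 34 UMIs) to Inhib_11 (40.7 CPM, 20 UMIs).

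The correlation between the members of a Dlx pair was modest, but sparse counts limit what it can show. For Dlx2, Dlx5 and Dlx6 no neighbouring clusters stood apart beyond their counting intervals at either age. A low correlation therefore does not show that the pairs diverged. Over the 24 points of 12 clusters at 2 ages, which share libraries and depth, Pearson's r of log2 levels was 0.51 for Dlx1 with Dlx2 and 0.24 for Dlx5 with Dlx6. The antisense transcripts had patterns of their own. Dlx6as1 was at 679 CPM in Inhib_12 and 578 CPM in Inhib_11, but at 25.0 CPM in Inhib_1 and 22.1 CPM in Inhib_2, the cluster with the highest Dlx6. Dlx1as was highest in Inhib_12 as well, at 148 CPM, and was at 2.78 CPM in Inhib_1.

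**Figure D1:**
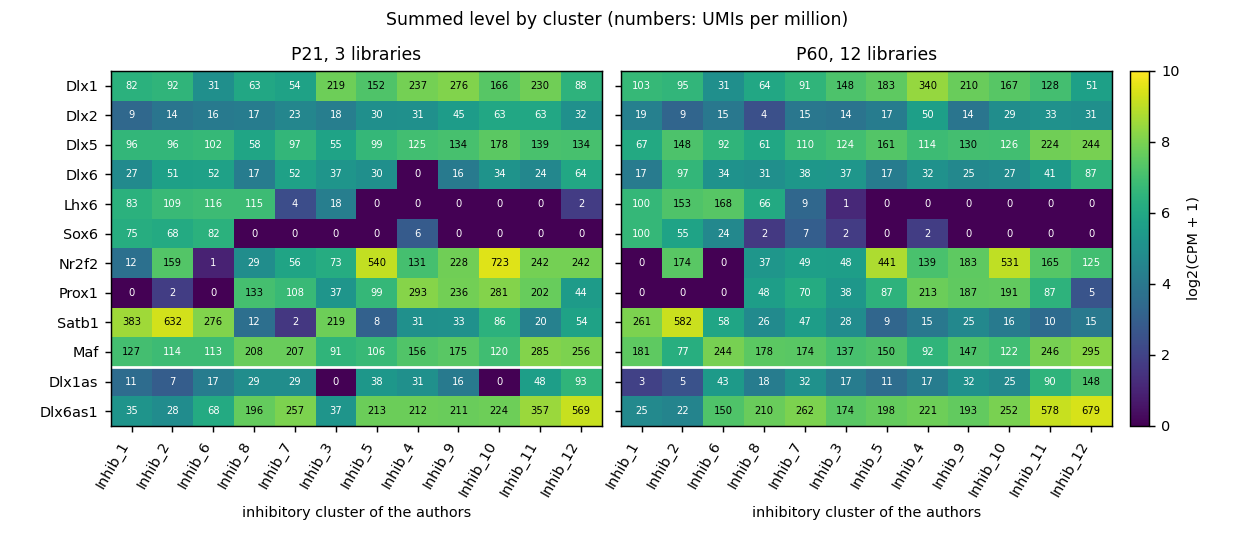
Heat map of the summed level of the 10 genes and of Dlx1as and Dlx6as1 (rows) in the 12 inhibitory clusters (columns), with the 3 P21 libraries on the left and the 12 P60 libraries on the right. Colour is log2 of CPM plus 1. Sox6 and Satb1 are highest in Inhib_1, Inhib_2 and Inhib_6 (at P60 Satb1 in Inhib_1 and Inhib_2), Lhx6 is highest in those 3 and Inhib_8, Prox1 is at 0 in Inhib_1 and Inhib_6, and Dlx1 is highest in Inhib_4 and Inhib_9.

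Lhx6, a LIM homeobox factor of the medial lineage, divided the clusters sharply. At P60 it reached 168 CPM in Inhib_6 (126 to 218), 153 CPM in Inhib_2 (130 to 178), 100 CPM in Inhib_1 (70.04 to 138) and 65.8 CPM in Inhib_8 (44.4 to 93.9). Inhib_7 held 9.03 CPM, Inhib_3 held 1 UMI, and Inhib_4, Inhib_5, Inhib_9, Inhib_10, Inhib_11 and Inhib_12 held none, which allows at most 3.71 to 7.63 CPM (3 UMIs of the cluster's total). The Lamp5 cluster Inhib_8 therefore stood with the Sst and Pvalb clusters in this gene, at both ages, with 115 CPM at P21. At P21 Inhib_6 led again with 116 CPM, and Lhx6 was again at 0 in Inhib_4, Inhib_5, Inhib_9, Inhib_10 and Inhib_11.

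Sox6, an SRY-box factor that acts after Lhx6 in the same lineage, was at 100 CPM in Inhib_1, 54.7 CPM in Inhib_2, 24.4 CPM in Inhib_6 and 6.99 CPM in Inhib_7 at P60. Unlike Lhx6, it was nearly absent from Inhib_8, and it was at 0 in Inhib_5, Inhib_9, Inhib_10, Inhib_11 and Inhib_12. At P21 the same 3 clusters led with 68.0 to 81.7 CPM, and 8 clusters held no Sox6 UMI.

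Satb1, a chromatin organiser that Lhx6 acts through in maturing Sst and Pvalb cells, was strongest in Inhib_2. It reached 582 CPM there at P60 (536 to 630) and 261 CPM in Inhib_1, followed by 58.0 CPM in Inhib_6 and 46.6 CPM in Inhib_7. The other 8 clusters lay between 8.7 and 28.4 CPM. Over single libraries the Inhib_2 level was 595 ± 136 CPM at P60 (SD, n = 6 libraries with at least 10 cells) and 630 ± 43.4 CPM at P21 (SD, n = 3). At P21 the order began in the same way, with 632 CPM in Inhib_2 and 383 CPM in Inhib_1, but Inhib_6 followed at 276 CPM and Inhib_7 came last at 2.07 CPM, from 1 UMI.

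Maf, a bZIP factor that acts in the medial lineage, was not restricted to it at these ages. It was present in all 12 clusters, at 295 CPM in Inhib_12 (244 to 354), 246 CPM in Inhib_11 and 244 CPM in Inhib_6, and was lowest in the Sst cluster Inhib_2 at 76.8 CPM. At P21 it ranged from 91.3 to 285 CPM, and again no cluster lacked it.

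Nr2f2, a nuclear receptor of the caudal lineage also known as COUP-TFII, was highest in Inhib_10 at 531 CPM (466 to 604) and in the Reln cluster Inhib_5 at 441 CPM (382 to 506). It was at 0 in Inhib_1 and Inhib_6, which allows at most 8.33 and 9.15 CPM. The Sst cluster Inhib_2, by contrast, held 174 CPM (149 to 201), a level like that of Inhib_9 (183 CPM) and Inhib_11 (165 CPM), and 174 ± 65.4 CPM over its libraries (SD, n = 6). The 2 Sst clusters thus stood far apart in this gene, at P21 too, where Inhib_2 held 159 CPM and Inhib_1 held 12.0 CPM.

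Prox1, a homeobox factor of the caudal lineage, broadly ran opposite to Lhx6, though Inhib_8 held both genes. Inhib_8 had 65.8 CPM of Lhx6 and 48.2 CPM of Prox1 at P60, and 115 and 133 CPM at P21. Prox1 was highest in the Vip clusters Inhib_4 (213 CPM, 170 to 263), Inhib_10 (191 CPM) and Inhib_9 (187 CPM) at P60. It held no UMI in Inhib_1, Inhib_2 and Inhib_6 at P60, and the limit for Inhib_2 was 2.88 CPM. In Inhib_7 and Inhib_8 it was at 69.9 and 48.2 CPM. At P21 the order was almost the same, from 293 CPM in Inhib_4 to 0 in Inhib_1 and Inhib_6, with 2.49 CPM in Inhib_2.

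How far the order of clusters was shared by the ages differed from gene to gene. Spearman's rho between P60 and P21 levels over the 12 clusters was 0.96 for Prox1, 0.94 for Lhx6, 0.91 for Nr2f2, 0.86 for Dlx1 and 0.81 for Sox6, 0.62 for Satb1, and 0.51 to 0.55 for Dlx2, Dlx5, Dlx6 and Maf. Across the 24 points, Sox6 and Satb1 had a Pearson's r of 0.83, Lhx6 and Sox6 of 0.78, and Lhx6 and Satb1 of 0.68. Prox1 ran opposite to all 3, with −0.80 to Sox6, −0.75 to Lhx6 and −0.70 to Satb1. Dlx1 ran with the caudal factors, at 0.68 to Prox1 and 0.63 to Nr2f2, and against Lhx6 at −0.65. These values describe cluster levels that share libraries, and P21 cells had been named by their likeness to P60 clusters.

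Genes with the most similar pattern were sought for each member among 6967 genes over the same 24 points, by Pearson's r of log2(CPM + 10). Among those for Lhx6 were Prkacb (r = 0.82) and Jund (0.81). For Sox6 they were Lgals1 (0.91), Crhbp (0.89) and Barx2 (0.89), and for Satb1 Cacna2d2 (0.90), Lypd6 (0.89) and Lypd6b (0.88). Adarb2, a marker of caudal lineage interneurons, had the lowest r of all candidates to Lhx6 (−0.89) and to Sox6 (−0.93). For Prox1 the most similar were Gm17566 (0.92), Sh3bgrl (0.90) and Zbtb16 (0.87), for Nr2f2 Sdc2, Galnt14 and 2700094K13Rik (each 0.84), and for Maf Dlx1as (0.73), Zfp536 (0.71) and Ppp1r2 (0.68). For Dlx1 they were A730017C20Rik (0.85), Vip (0.84) and Synpr (0.82), for Dlx2 Pdgfa (0.80), Pcdh20 (0.78) and 2610001J05Rik (0.75), for Dlx5 Fgf11 (0.85), Ufm1 (0.81) and 2610001J05Rik (0.79), and for Dlx6 Akt1 (0.72), Ppm1a (0.70) and Osbpl2 (0.69).

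In single cells, at least 1 UMI of Dlx1, Dlx2, Dlx5 or Dlx6 was found in 81.8% of the 1191 inhibitory neurons at P60 (median depth 8038 UMIs) and in 73.9% of the 962 at P21 (median 6812 UMIs). In excitatory neurons, which should lack these genes, it was found in 0.346% of 14443 cells at P60 (median 13620 UMIs) and in 0.657% of 5934 cells at P21 (median 9233 UMIs). At P60 the share was highest in Inhib_12 (100%) and lowest in Inhib_6 (56.8%). At P21 it was highest in Inhib_12 (90.9%) and lowest in Inhib_3 (58.3% of its 12 cells). Lhx6 had a UMI in 13.2% of inhibitory neurons at P60 and 32.3% at P21 (0.0277% and 0.185% in excitatory neurons), and after thinning every cell to 2000 UMIs the shares were 4.37% and 10.2%. Prox1 had a UMI in 36.4% at P60 and 19.3% at P21 (0.118% and 0.337% in excitatory neurons), and 13.5% and 10.1% after thinning.

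Lhx6 and Prox1 were almost never found in the same cell. A UMI of both occurred in 5 cells at P60, 3 of them in Inhib_8 and 2 in Inhib_7, where 157 cells held Lhx6 and 433 held Prox1. At P21 both occurred in 4 cells. Lhx6 and Nr2f2 did meet, in 44 cells at P60 and 72 at P21, of which 43 and 69 were in Inhib_2. Inhib_2 was thus a Sst cluster in which Satb1 had a UMI in 92.0%, Lhx6 in 71.4% and Nr2f2 in 50.9% of its 112 P60 cells, and Prox1 in 0 of them. In excitatory neurons Nr2f2 had a UMI in 1.58% of P60 cells, while Satb1 had one in 38.9% of them, so that Satb1 was not a gene those cells lacked.

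To ask how the genes changed between adolescence and adulthood, UMIs of all inhibitory neurons were summed per library and the 3 P21 libraries were compared with the 6 P60 saline libraries by edgeR's quasi-likelihood test. To be called, a gene needed more than a 1.5-fold change and an adjusted p (Benjamini-Hochberg) under 0.05, and log2 fold changes are P60 minus P21. Of the 10 genes 2 were lower at P60, Satb1 and Sox6, and 0 were higher, by DESeq2 as well, while 14.0% of all 8899 genes tested were called (8.29% lower and 5.74% higher). At an unadjusted p below 0.05 there were 4, the others being Lhx6 and Prox1, and 33.0% of all genes. The median log2 fold change of the 10 genes was −0.07, against 0.00 for all genes. The CPM of the P21 and saline libraries did not overlap for 3 of the 10, Lhx6, Satb1 and Sox6, where 18.0% of all genes did not overlap.

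Satb1 was at 315, 340.2 and 389 CPM in the 3 P21 libraries, and its lowest, median and highest values in the 6 saline libraries were 17.2, 98.8 and 134 CPM. Every P21 library therefore held more than any saline library, with a log2 fold change of −1.96 ± 0.30 (SE, adjusted p = 0.0021). Sox6 was at 37.1, 53.1 and 59.4 CPM at P21 and at 0, 11.02 and 24.1 CPM (lowest, median, highest) in saline, with −1.84 ± 0.34 (adjusted p = 0.0021). Lhx6, at 62.6, 79.3 and 85.6 CPM at P21, had 0, 39.8 and 59.4 CPM in saline. These groups did not overlap either, and the log2 fold change of −1.36 ± 0.53 did not pass (adjusted p = 0.12). With all 12 P60 libraries in the fit, Lhx6 was called lower (−1.25, adjusted p = 0.032). With the same number of cells drawn from every library, Satb1 had −1.92 (adjusted p = 0.069) and Sox6 had too few UMIs to be tested.

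Prox1 was at 43.8, 44.2 and 67.6 CPM at P21 and at 61.9, 74.1 and 119 CPM in saline. In 3 of the 6 saline libraries it was above every P21 library, and the other 3 overlapped with P21. Its log2 fold change of 0.57 ± 0.20 had an adjusted p of 0.049 but was less than 1.5-fold. It passed both limits without P21 library 2 (0.80), without the second saline library of 48 h (0.65) and without the first saline library of 15 d (0.66). The caudal partner Nr2f2 was at 109 to 163 CPM at P21 and 95.9 to 275 CPM in saline, a log2 fold change of −0.05 ± 0.29. Maf, at 125 to 169 CPM at P21 and 138 to 179 CPM in saline, had 0.17 ± 0.14.

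None of the Dlx genes was called. Dlx1 was at 89.6, 97.7 and 106 CPM at P21 and at 88.9, 127 and 238 CPM in saline, with 0.36 ± 0.19 (adjusted p = 0.19). Dlx2 had −0.40 ± 0.27, Dlx5 0.04 ± 0.16 and Dlx6 −0.10 ± 0.19, and the ages overlapped in all of them. The antisense Dlx6as1 was called higher at P60, from 115, 127 and 138 CPM at P21 to 206, 234 and 326 CPM in saline without overlap (0.93 ± 0.14, adjusted p = 0.00035). Dlx1as, at 11.6 to 26.3 CPM and 14.8 to 79.0 CPM, was not (0.80 ± 0.39).

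**Figure D2:**
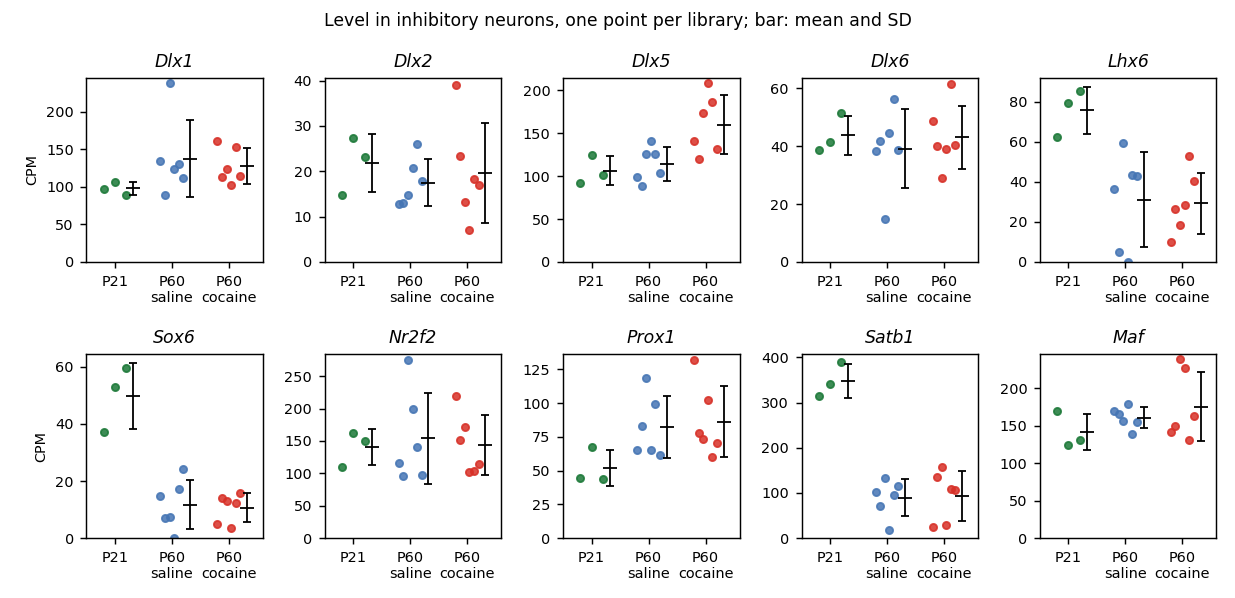
CPM of each of the 10 genes in the summed inhibitory neurons of each library (points), for P21 (3 libraries), P60 saline (6) and P60 cocaine (6), with bars for the mean and SD of each group. The P21 points lie above all saline points for Satb1, Sox6 and Lhx6, and the groups overlap for the other 7 genes.

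The makeup of the inhibitory neurons differed between the ages along with these levels. The Sst and Pvalb clusters Inhib_1, Inhib_2 and Inhib_6 held 601 of 962 inhibitory neurons at P21 (54.5%, 61.5% and 69.5% of those in the 3 libraries) and 83 of 563 in saline mice (lowest 0%, median 12.0%, highest 25.7% per library). Inhib_7 held 4.31% to 13.8% at P21 and 15.8% to 40.4% in saline. The levels and the mix therefore moved together.

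With P21 cluster levels weighted by the saline mix, the sums of Satb1, Sox6, Lhx6 and Dlx6as1 came near the saline values. When the P21 level of every cluster was weighted by the share of UMIs that the cluster had in saline mice, Satb1 came to 108 CPM, against an actual 345 CPM at P21 and 93.0 CPM in saline. The same weighting took Sox6 from 48.7 to 11.8 CPM (14.1 CPM in saline) and Lhx6 from 74.6 to 26.3 CPM (29.9 CPM in saline). For Dlx6as1 it took 127 to 212 CPM (234 CPM in saline). For Prox1 it moved the P21 value past the saline value, from 50.8 to 116 CPM, against 73.6 CPM in saline. The clusters had been made from the genes of these same cells, so the weighting is a description only. For Satb1 the weighted sum also joins differences of opposite sign, with 9 clusters lower in saline and 3 higher. Inhib_6 held 276 CPM at P21 and 27.2 CPM in saline, and Inhib_7 held 2.07 and 44.2 CPM. Why the sums differed between the ages was not tested.

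In fits limited to the Sst and Pvalb clusters (3 P21 and 3 saline libraries, 2.59% of 7562 genes called), none of the 8 members tested was called. Satb1 then had a log2 fold change of −0.27 ± 0.20 (adjusted p = 0.56), Sox6 −0.20 ± 0.26 (adjusted p = 0.78) and Lhx6 0.24 ± 0.30 (adjusted p = 0.77). The antisense Dlx6as1 had 0.65 ± 0.29 there (adjusted p = 0.26), higher at P60 but not called. With those clusters left out (3 and 6 libraries, 9.04% of 7267 genes called), Satb1 had −0.19 ± 0.41 (adjusted p = 0.81), Dlx6as1 lost its call at −0.19, and 2 other members were called lower at P60, Prox1 with −0.81 ± 0.21 (adjusted p = 0.018) and Dlx2 with −1.09 ± 0.31 (adjusted p = 0.029). The direction of Prox1 was thus the reverse of that in all inhibitory neurons. The clusters left in this fit still differed in their mix between the ages. Inhib_7 held 76 cells at P21 and 201 in saline, and Inhib_4, Inhib_9 and Inhib_10 together held 140 and 139. The part of this in the 2 calls was not tested. A limma fit had the cluster as a term and the library as a random block. It used 30 cluster sums of 7 clusters from 3 P21 and 4 saline libraries, and 8.61% of 2403 genes were called. It tested 5 members, Dlx1, Dlx5, Nr2f2, Prox1 and Maf, and called none. Prox1 had −0.60 ± 0.28 (adjusted p = 0.14) and Dlx6as1 had 0.09 ± 0.16 (adjusted p = 0.75). Satb1, Sox6 and Lhx6 were not among the genes tested in that fit, and Sox6 and Lhx6 were not among those tested without the Sst and Pvalb clusters. These fits on parts of the mix were chosen after the data had been seen, apart from the one with the cluster term.

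**Figure D3:**
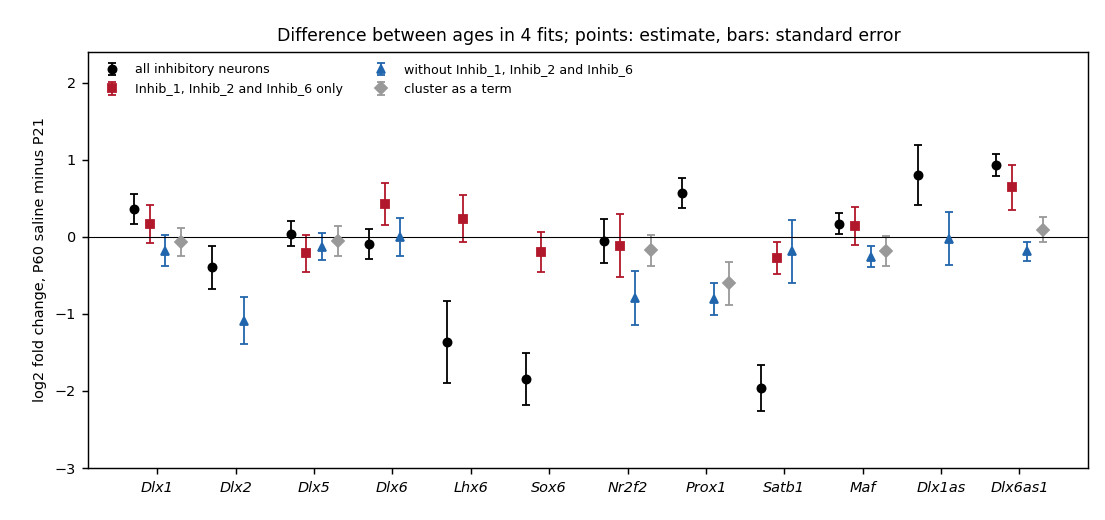
Log2 fold change from P21 to P60 saline of the 10 genes and 2 antisense transcripts, with bars of 1 SE, in 4 fits. The edgeR fits are of all inhibitory neurons, of the Sst and Pvalb clusters only, and of all without those clusters. The fit with the cluster as a term is by limma. Satb1 and Sox6 lie at −1.96 and −1.84 in all inhibitory neurons and at −0.27 and −0.20 in the Sst and Pvalb clusters, and Prox1 lies above 0 in all inhibitory neurons and below 0 without the Sst and Pvalb clusters.

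Within single clusters, 3 had enough cells for a test, Inhib_2, Inhib_7 and Inhib_9. The edgeR fit called 0 members in each, among 8, 7 and 5 tested, where 0.925%, 2.59% and 1.13% of all genes were called, and DESeq2 called 0 as well. At an unadjusted p below 0.05 there were 2, 2 and 0 members, and 13.5%, 17.2% and 15.5% of all genes. The counts over all genes hung on single libraries. With 1 library left out at a time, the genes called lower ranged in Inhib_2 from 4 (without the first saline library of 15 d) to 98 (without P21 library 1), against 42 with all libraries. In Inhib_7 they ranged from 39 (without P21 library 1) to 194 (without the second saline library of 15 d), against 116, and in Inhib_9 from 1 to 47 (without the second saline library of 15 d), against 8. The genes called higher ranged from 0 to 81, from 11 to 59 and from 0 to 25. In Inhib_2, the Sst cluster with Nr2f2, Satb1 was at 588, 627 and 674 CPM at P21 and at 428, 683 and 707 CPM in 3 saline libraries, so the groups overlapped (−0.12 ± 0.19). Dlx6 lay at 45.3, 47.8 and 60.1 CPM at P21 and at 67.4, 95.2 and 107 CPM in saline, without overlap (0.79, adjusted p = 0.28), and Maf lay at 77.1, 99.3 and 151 CPM against 54.4, 57.1 and 75.9 CPM (−0.83, adjusted p = 0.33). These were the only 2 members without overlap in Inhib_2, where 20.3% of all genes had none.

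In Inhib_7, the Lamp5 and Npy cluster, the estimates of Satb1 and Prox1 had opposite signs, and neither gene was called. Prox1 was at 97.9, 111 and 153 CPM at P21 and at 58.1, 59.6, 63.2 and 86.8 CPM in 4 saline libraries, without overlap (−0.84 ± 0.28, adjusted p = 0.094). Satb1 was at 3.06, 0 and 0 CPM at P21 and at 7.77, 39.2, 48.8 and 87.5 CPM in saline. Its log2 fold change of 4.16 ± 1.40 rested on 1 UMI at P21 and did not pass (adjusted p = 0.15). Without the second saline library of 15 d it passed (4.48, adjusted p = 0.0013). Satb1 entered these fits only through its saline counts, so that pass cannot be taken as support for a change. With 1 library left out at a time, 4 of 7 fits tested it, with values from 3.93 (without P21 library 2) to 6.83 (without P21 library 1, which held that UMI, so that this value rests on the prior count and bounds nothing), and without either saline library of 48 h or the first of 15 d it had too few UMIs to be tested. The ratio of summed CPM, P60 saline to P21, was 21.3 with a counting interval of 3.72 to 852 (80 UMIs against 1). Prox1, Satb1 and Sox6 were the 3 members without overlap in Inhib_7, where 16.9% of the 5127 genes tested had none. Sox6 (0 UMIs at P21, 13 in saline) was not among those tested. Satb1 was among them only through its saline counts, so this count is not support for a change.

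In the Vip cluster Inhib_9, Dlx1 was at 269.5, 279 and 279 CPM at P21 and at 166, 225 and 262 CPM in saline (−0.40), and Dlx2 at 16.4, 40.4 and 63.1 CPM against 0, 12.8 and 15.4 CPM. Both were without overlap, as were 20.7% of the 1505 genes tested in this cluster. Dlx2 (11 UMIs at P21, 3 in saline) was too sparse to be among those tested. Prox1 had −0.32 there.

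For the other clusters only summed counts could be compared. Prox1 was lower at P60 saline than at P21 in 9 of 12 clusters and higher in 1, and the counting interval of the ratio lay below 1 in 5 of them, Inhib_7 (0.58, 0.42 to 0.83), Inhib_8 (0.38, 0.17 to 0.77), Inhib_10 (0.57, 0.36 to 0.89), Inhib_11 (0.27, 0.12 to 0.56) and Inhib_12 (0.11, 0.0027 to 0.72, from 18 UMIs at P21 and 1 in saline). Nr2f2 was lower in 11 of 12, with the interval below 1 in Inhib_10 (0.76) and Inhib_12 (0.60). Dlx2 was lower in 11 of 12 as well, with 1 interval below 1, in Inhib_9. Some of these clusters held very few UMIs, as for Dlx2 in Inhib_3 (1 at P21, 1 in saline) and Inhib_1 (7 and 0). The same held for Nr2f2 in Inhib_6 (1 and 0). Satb1 was lower in 9 and higher in 3. Its interval lay below 1 in the Pvalb cluster Inhib_6 (0.099, 0.027 to 0.26, from 287 UMIs at P21 and 4 in saline), in Inhib_3 (0.17, 0.068 to 0.42, from 12 and 11 UMIs) and in Inhib_10 (0.049, 0.0012 to 0.32, from 15 and 1 UMIs), while Inhib_1 and Inhib_2 had 0.81 (0.59 to 1.08) and 0.96 (0.83 to 1.10). Maf had a ratio of 2.22 in Inhib_6 (1.49 to 3.24), 0.56 in Inhib_2 (0.36 to 0.84) and 0.64 in Inhib_11 (0.40 to 0.99), its only intervals that left out 1. The interval of Lhx6 lay above 1 in Inhib_2 (1.47, 1.10 to 1.95) and below 1 in Inhib_8 (0.37, 0.16 to 0.80, from 20 and 11 UMIs), the Lamp5 cluster that held this gene. In the Inhib_2 fit across libraries, Lhx6 had a log2 fold change of 0.34 and was not called. With single libraries left out it ranged from 0.013 to 0.65. Among the other Dlx genes, the interval lay above 1 for Dlx6 in Inhib_2 (1.79, 1.20 to 2.62) and for Dlx1 in Inhib_7 (1.68, 1.11 to 2.65), and below 1 for Dlx5 in Inhib_1 (0.30, 0.093 to 0.72, from 72 and 5 UMIs). Dlx6 in Inhib_4 went from 0 UMIs at P21 to 6 in saline, with a lower limit of 1.01. For Sox6 no interval left out 1. The antisense Dlx6as1 was higher at P60 in 9 of 12 clusters, with the interval above 1 in Inhib_3 (4.00, 1.04 to 34.1, from 2 and 43 UMIs), Inhib_6 (2.39, 1.44 to 3.85) and Inhib_11 (1.52, 1.12 to 2.06). The intervals hold counting error only, without the spread between libraries, and the 12 clusters share libraries. How many of all genes were lower or higher in as many clusters, or had such intervals, was not counted.

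Clusters of the same name differed between the ages in the level of at least 1 peptide gene. Whether a name covered other cells or the level changed in the same cells was not tested. Tac1 was at 2282 CPM in Inhib_6 at P21 and at 18.3 CPM at P60 (6.81 CPM in saline), and in Inhib_2 it was at 393 CPM at P21 and 0 at P60. In Inhib_7 it was the reverse, with 4.14 CPM at P21 and 325 CPM at P60 (392 CPM in saline), together with Pvalb at 0 and 256 CPM (343 CPM in saline).

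The Satb1 of Inhib_7 at P60 came from a minority of its cells. Of 392 cells, 61 (15.6%, and 6.63% after thinning to 2000 UMIs) had a Satb1 UMI, against 1 of 76 at P21. Among these 61 cells Lhx6 had a UMI in 23.0%, Sox6 in 21.3%, Pvalb in 54.1% and Tac1 in 68.9%, whereas among the other 331 the shares were 1.21%, 1.21%, 2.72% and 2.11%. The Lamp5 and Npy genes that marked the cluster ran the opposite way, with Lamp5 in 18.0% against 95.2%, Kit in 14.8% against 87.9%, Npy in 65.6% against 97.6% and Prox1 in 9.84% against 47.4%. Dlx1 was found in 44.3% and 49.2%, and the median depth was 9412 and 9243 UMIs. In the saline mice alone, 35 of 201 cells had a Satb1 UMI, and Pvalb was found in 54.3% of them and in 3.61% of the rest. The excitatory marker Slc17a7 was found in 24.6% and 15.7% of the P60 cells, and its part in these shares was not tested.

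**Figure D4:**
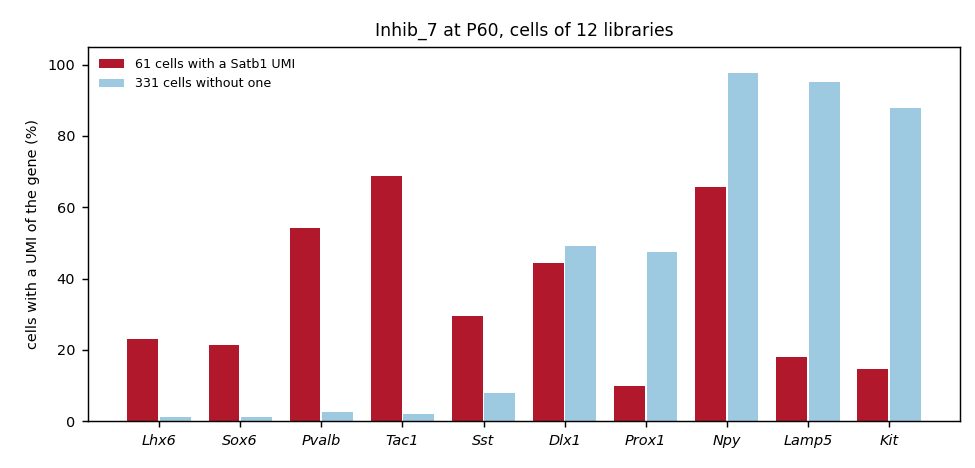
Percentage of Inhib_7 cells of the 12 P60 libraries with at least 1 UMI of each gene, for the 61 cells with a Satb1 UMI and the 331 cells without. Pvalb, Tac1, Lhx6 and Sox6 are found more often in the cells with Satb1, and Lamp5, Kit, Npy and Prox1 in the cells without.

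Other genes of the same lineages were read from a list of 30, of which 22 were tested in all inhibitory neurons. Of these, 4 rose, 4 fell and 14 were not called, where 5.74% of all genes rose and 8.29% fell, and the median log2 fold change was 0.04, against 0.00 for all genes. Among those that fell were Sox4 (−1.68, adjusted p = 0.00075), an SRY-box gene of immature neurons whose symbol 2 rows of the table share, and Elfn1 (−0.96, adjusted p = 0.00053), a synaptic protein of Sst cells. Those that rose were Id2 (1.82, adjusted p = 0.00080), an inhibitor of bHLH factors that marks neurogliaform cells, Nfib (1.49, adjusted p = 0.00010), Nfix (1.38, adjusted p = 0.00016) and Meis2 (1.35, adjusted p = 0.0054). Lhx8 and Gsx2, which act in progenitors, had no UMI in the inhibitory neurons of either age, which allows up to 3 of 6976596 UMIs at P21 and of 4992048 in saline mice. When the Sst and Pvalb clusters were left out, Sox4 was still called, and Elfn1 (−0.60), Id2 (0.56), Nfib (0.23), Nfix (0.10) and Meis2 (0.54) were not. Within those clusters Id2 (1.81) and Nfib (1.91) were still called, while Sox4 and Nfix (1.15) were not and Elfn1 turned to 0.62, not called. With the cluster as a term Id2 had 0.27, and Nfib (−0.10), Nfix (−0.40) and Elfn1 (0.40) turned sign, none of them called.

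Of 18 genes of inhibitory identity, all tested, 4 rose, 1 fell and 13 were not called, beside the same 5.74% and 8.29% of all genes. Gad1, which makes the transmitter GABA, rose by 0.79 (adjusted p = 0.0012), the receptor gene Kit by 1.37 (adjusted p = 0.0040), Lamp5 by 1.75 (adjusted p = 0.031) and Ndnf by 1.32 (adjusted p = 0.04999), while Nos1 fell by 1.19 (adjusted p = 0.017). Kit, Lamp5 and Ndnf are typical of neurogliaform cells. With 1 library left out at a time, Ndnf was called only without P21 library 1 (2.53) and lost its call in the other 8 of 9 fits, with values down to 0.91. Lamp5 lost its call in 6 of 9, without P21 library 2 or 3 or any saline library of 48 h or 15 d, and ranged from 1.44 to 2.47. Nos1 lost its call without P21 library 2 or 3. When the Sst and Pvalb clusters were left out, Nos1 turned to 0.34, Gad1 had 0.39, Kit 0.20, Lamp5 0.49 and Ndnf 0.17, and with the cluster as a term Kit turned to −0.39 and Gad1 had 0.03, none of them called. Beside these lists, markers of other cell types in the inhibitory sums ranged per library from 15.1 to 45.4 CPM at P21 and 6.49 to 157 CPM in saline for the 2 excitatory genes, from 89.4 to 192 and 3.44 to 163 CPM for the 3 oligodendrocyte genes, from 8.56 to 15.6 and 0 to 117 CPM for the 3 astrocyte genes, from 25.1 to 35.1 and 0 to 19.0 CPM for the 3 microglial genes, and from 10.6 to 39.9 and 0 to 104 CPM for the 3 endothelial genes, with no gene at 0 over the libraries of an age. Their part in the age differences was not tested.

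Outside the inhibitory neurons, the Dlx genes were at or below 1.4 CPM in every class at P60, while 5 of the other members were used elsewhere. Sox6 stood at 150 CPM in oligodendrocyte precursors and 147 CPM in newly formed oligodendrocytes, against 13.7 CPM in all inhibitory neurons. Maf stood at 183 CPM in microglia, Nr2f2 at 112 CPM in endothelial cells and Prox1 at 75.6 CPM in oligodendrocytes. Satb1 was at 50.8 CPM in excitatory neurons.

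Satb1 was the only member called with age in any of these classes. In excitatory neurons, where 3 members could be tested and 19.3% of all 13246 genes were called (11.1% lower), it was at 85.4, 87.5 and 91.7 CPM in the P21 libraries and at 33.3, 45.7 and 62.2 CPM (lowest, median, highest) in saline, without overlap. Its log2 fold change was −0.84 ± 0.13 (adjusted p = 0.00039). At an unadjusted p below 0.05 it was also the only 1 of the 3, beside 49.5% of all genes. Markers of other cell types were also higher at P21 in the excitatory sums, per library at 153 to 216 CPM against 38.3 to 88.9 CPM in saline for the 3 oligodendrocyte genes, at 8.85 to 10.5 against 0.36 to 4.46 CPM for the 3 inhibitory genes (Gad1, Gad2 and Slc32a1) and at 18.0 to 54.01 against 2.01 to 8.55 CPM for the 3 endothelial genes. The 3 astrocyte genes (7.48 to 25.1 and 1.57 to 14.4 CPM) and the 3 microglial genes (8.72 to 51.3 and 4.03 to 12.7 CPM) overlapped, and no marker was at 0 over the libraries of an age. Most other members were lower at P60 in these sums as well, though at far lower levels. Of the 10 genes, 8 (Dlx1, Dlx5, Dlx6, Lhx6, Nr2f2, Prox1, Satb1 and Sox6) lay higher in every P21 library than in any saline library, where 16.4% of the 19666 genes with a UMI did so and 25.9% had no overlap in either direction. Sox6, for example, was at 0.65 to 1.25 CPM at P21 and 0 to 0.25 CPM in saline, Nr2f2 at 1.95 to 2.32 and 0.60 to 1.84 CPM, and Dlx1 at 0.37 to 0.55 and 0 to 0.15 CPM. The part of the marker genes in these differences was not tested. Summed over libraries Satb1 was lower at P60 in 26 of 26 excitatory clusters, by ratios of 0.22 to 0.80 with a median of 0.56. These clusters share the same libraries, so they are not separate replicates of the difference. How many of all genes were lower in all of them was not counted. The P21 levels of Satb1 weighted by the saline mix of clusters gave 86.7 CPM, against 89.1 CPM at P21 and 49.1 CPM in saline. Exc_21 held the highest level at both ages, 305 CPM at P21 and 171 CPM in saline, and Exc_4 the lowest at P21 with 17.8 CPM.

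**Figure D5:**
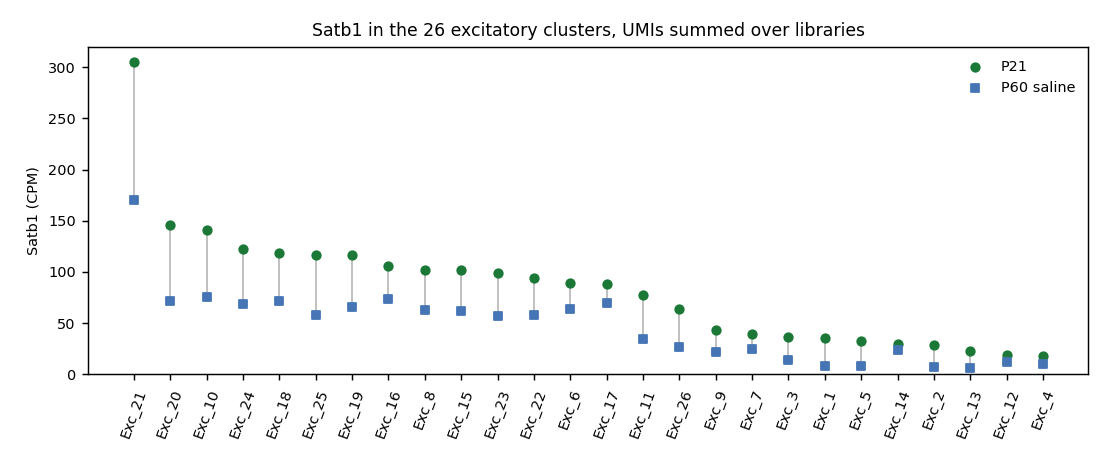
Satb1 level in CPM (vertical axis) in each of the 26 excitatory clusters (horizontal axis, ordered by P21 level), with UMIs summed over libraries. Circles are P21, squares are P60 saline, and a grey line joins the values of a cluster. The P60 saline value lies below the P21 value in all 26 clusters, with Exc_21 highest at both ages. The clusters share the same libraries.

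The remaining tests outside inhibitory neurons called 0 members in astrocytes, newly formed oligodendrocytes, oligodendrocytes, microglia and endothelial cells, by edgeR and by DESeq2, where 1.11%, 1.94%, 17.8%, 0.726% and 12.7% of all genes were called. At an unadjusted p below 0.05 there was 1 member each in astrocytes, oligodendrocytes and endothelial cells and 0 in the other 2 classes, where 14.0%, 33.4% and 29.4% of all genes passed in the first 3 and 14.9% and 11.4% in newly formed oligodendrocytes and microglia. With 1 library left out at a time, the genes called lower ranged from 25 to 110 in astrocytes (without P21 libraries 3 and 1, against 57), from 8 to 135 in newly formed oligodendrocytes (without the first and the second saline library of 15 d, against 56) and from 5 to 60 in microglia (without P21 library 1 and the second saline library of 15 d, against 28). The genes called higher ranged from 2 (without P21 library 2 or 3 or the second saline library of 48 h) to 82 (without P21 library 1) in astrocytes, against 7, from 15 (without P21 library 3 or the second saline library of 48 h) to 74 (without P21 library 1) in newly formed oligodendrocytes, against 35, and from 1 to 17 (without the first saline library of 15 d) in microglia, against 1. In oligodendrocytes they ranged from 248 (without P21 library 3) to 412, against 385, and in endothelial cells from 345 (without P21 library 3; 364 without P21 library 2) to 691, against 553. Maf in astrocytes lay at 8.42, 8.73 and 19.4 CPM at P21 and at 0, 4.02 and 7.27 CPM (lowest, median, highest of 5 libraries) in saline, without overlap, as were 6.27% of the 15826 genes with a UMI (2.89% lower at P60), and it had too few UMIs to be tested. Prox1 in oligodendrocytes lay at 82.5 to 115 CPM at P21 and 45.0 to 85.4 CPM in saline (−0.52 ± 0.21, adjusted p = 0.079), and it was called lower without P21 library 1 (−0.70, adjusted p = 0.043). Sox6 in newly formed oligodendrocytes had 0.01 ± 0.26, Maf in microglia 0.21 ± 0.28 and Nr2f2 in endothelial cells −0.23 ± 0.16. Larger, though not called, were Maf in endothelial cells (−0.98) and Satb1 in astrocytes (−1.04). Satb1 in endothelial cells had −0.62 (adjusted p = 0.30), and was called lower without the second saline library of 15 d (−1.05, adjusted p = 0.034). Oligodendrocyte precursors had too few P21 libraries for a test.

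Cocaine was compared with saline in the inhibitory neurons of the 12 P60 libraries, with 2 libraries per group. No member was called at maintenance, 48 h or 15 d of withdrawal or for their mean, by edgeR or DESeq2, where 0%, 0.0115%, 0.840% and 0% of 8688 genes were called. The genes called higher at 15 d, 54 in all, ranged from 1 (without the first cocaine library of 15 d) to 115 (without the second saline library of 15 d), and the 1 gene at 48 h became 39 without the first cocaine library of 48 h. At an unadjusted p below 0.05 there were 0 members at maintenance and 1 in each of the other contrasts, Dlx5 each time, where 4.10% of all genes passed at maintenance, 4.83% at 48 h, 6.15% at 15 d and 5.18% for the mean. Dlx5 was at 120.2, 158 and 209 CPM (lowest, median, highest) in the 6 cocaine libraries and at 88.9, 115 and 141 CPM in the 6 saline libraries, so the groups overlapped over all time points. Within each time point both cocaine libraries were above both saline libraries. The values were 141.5 and 174 against 126 and 140.9 CPM at maintenance, 186 and 209 against 104 and 125 CPM at 48 h, and 120.2 and 131 against 88.9 and 99.3 CPM at 15 d. At maintenance the nearest values, 141.5 and 140.9 CPM, were almost equal. Dlx5 was looked at closely because of its unadjusted p, and how many of all genes were separated in this way was not counted. Its log2 fold change, cocaine minus saline, was 0.28 ± 0.26 at maintenance, 0.79 ± 0.20 at 48 h (adjusted p = 0.41) and 0.42 ± 0.18 at 15 d (adjusted p = 0.64), with a mean of 0.50 ± 0.12 (adjusted p = 0.53). Satb1 was at 24.4, 108 and 158 CPM, Sox6 at 3.5, 12.8 and 15.8 CPM and Lhx6 at 9.8, 27.5 and 52.8 CPM in the cocaine libraries, and each of these ranges overlapped that of the saline libraries.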

How the data were processed

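Single-cell RNA of the mouse PFC was captured on the 10X Chromium platform, and the authors aligned reads to mm9 and counted Ensembl genes (NCBIM37) in Cell Ranger. The counts deposited by the authors are UMIs of a gene in a cell, without normalization. The authors also deposited, for each cell, the fraction of mitochondrial transcripts, its sample, class and cluster (other, text), and they had removed cells with few genes, a high mitochondrial fraction or signs of doublets in Seurat 2.1.0. No further doublet caller was run. Cells without an author annotation were not used here.

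Here, 13 mitochondrial and 142 ribosomal protein genes (8.82% to 11.1% of UMIs) were left out, counts were summed per library and class or cluster with at least 10 cells, and libraries, not cells, were tested by edgeR 4.0.16 (quasi-likelihood, TMM, filterByExpr, limma 3.58.1, R 4.3.3), with p-values adjusted over all genes tested. The SE of the edgeR fits is the log2 fold change divided by the root of F. The fit with the cluster as a term was made by limma, with the SE of its coefficient. DESeq2 1.42.0, other filters, other sets of libraries and each library left out were alternatives. Levels, thinning and figures used Python 3.11.15 with numpy 2.4.6, pandas 2.3.3, scipy 1.17.1 and matplotlib 3.10.9.

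The 10 genes and the gene lists were chosen with earlier results of these data known. Named beside them were their antisense transcripts, called or unseen genes of the lists, the leading clusters of Sst, Pvalb, Vip, Lamp5 and Reln, and the 3 genes most like each member (genes with at least 100 UMIs). Some genes that this rule names were counted but are not reported here. Genes outside that rule (Tac1, and the genes counted in Inhib_7 cells) were chosen after their values were seen. Lamp5 and Ndnf carry older symbols in the files.

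Depth was 8375172 to 42892922 UMIs per library. On simulated counts with the sizes of the inhibitory comparison of ages (8653 genes tested), 14.0% of 2-fold increases, 13.3% of 2-fold decreases, 100% of 4-fold increases and 85.7% of 4-fold decreases were called. In the Inhib_7 comparison (4713 genes) these were 0%, 6.06%, 88.0% and 77.8%, and for cocaine at 15 d (8388 genes) 2.00%, 2.17%, 68.0% and 57.1%. The simulation gave every gene the same fixed spread, which was not estimated from these data, so its rates need not hold for them. The methods name fewer P21 mice than 2 for each of the 3 P21 libraries, so some of these libraries may share animals, and p-values then measure in part a technical spread.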

Additional observations from a re-analysis of the deposited data

Results flagged for a closer look

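Of 58 groups of 4 to 10 libraries examined, 4 held a library far from the others by Dixon's test, and chance alone flags about 1 in 20 groups. Dlx1 in all inhibitory neurons was at 237.6 CPM in the first saline library of maintenance, which held 19 inhibitory neurons, where the next saline library had 134.0 CPM. Sox6 in newly formed oligodendrocytes was at 227.2 CPM in the second cocaine library of 48 h, where the next cocaine library had 150.3 CPM. Lhx6 in Inhib_7 was at 37.7 CPM in the second cocaine library of 48 h, where the next had 6.10 CPM. Satb1 in Inhib_7 was at 253.8 CPM in the second cocaine library of maintenance, from 13 cells, where the next had 62.8 CPM. The cocaine libraries named here entered a test of age only where all 12 P60 libraries were used, and they are part of the levels over all 12 P60 libraries.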

How the results depend on the processing

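These comparisons were limited by sparse counts, few libraries and a cluster mix that differed between the ages. Saline libraries held as few as 19 inhibitory neurons, and only 3 clusters could be tested. In the simulation 2-fold changes were mostly missed with 3 P21 libraries, at a spread that was not estimated from these data. No paired analysis was possible because the labels give no replicate number that links libraries across groups. The fits with the Sst and Pvalb clusters only and without them were chosen after seeing the data. Where a value changed, the cause was not tested.

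In all inhibitory neurons, 1 member, Prox1, was called higher at P60 with no fold limit, with all 12 P60 libraries, with the authors' class in place of the clusters and without Inhib_3. The members called lower, 2 in the reported comparison (Satb1 and Sox6), were 0 with the same number of cells from every library, where Sox6 was not tested, with the cluster as a term, where neither was tested, and in the Sst and Pvalb clusters only, where both were. Over all genes, 511 were higher and 738 lower. With the same number of cells these were 71 and 140, with the cluster as a term 47 and 160, in the Sst and Pvalb clusters only 55 and 141, and without those clusters 222 and 435. In Inhib_2, 1 member, Dlx6, was higher with all 12 P60 libraries, and in Inhib_7, 1 member, Satb1, with no filter on low counts. In excitatory neurons, 5 members (Dlx1, Dlx5, Sox6, Prox1 and Satb1) were lower with no filter and 2 (Sox6 and Satb1) with P21 libraries 2 and 3 joined. In microglia, 1 member, Sox6, was lower with no filter.

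Log2 fold changes that turned sign did so as follows. With the cluster as a term, Dlx1 had −0.063, Dlx5 −0.051, Prox1 −0.60, Maf −0.19, Elfn1 0.40, Kit −0.39, Nfix −0.40 and Nfib −0.10. Without the Sst and Pvalb clusters, Dlx1 had −0.18, Dlx5 −0.13, Prox1 −0.81, Maf −0.26, Dlx1as −0.021, Dlx6as1 −0.19 and Nos1 0.34. In those clusters only, Dlx5 had −0.22, Dlx6 0.43, Lhx6 0.24 and Elfn1 0.62. Dlx5 had −0.012 with no filter and −0.041 both with a minimum of 30 cells and with saline libraries of 48 h and 15 d alone. Nr2f2 had 0.049 by DESeq2, 0.043 with P21 libraries 2 and 3 joined, 0.087 with the same number of cells and 0.0086 without Inhib_3. Sox6 in newly formed oligodendrocytes had −0.11 with no filter.

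Leaving out each library in turn, Satb1 ranged from −2.08 to −1.80 and Sox6 from −2.17 to −1.64, both called lower each time, and Satb1 in excitatory neurons was called lower each time as well. Members called higher in inhibitory neurons ranged from 0 to 1 (Prox1, without P21 library 2, the second saline library of 48 h or the first of 15 d). All genes called higher ranged from 268 to 691, with 340 without P21 library 2 and 268 without P21 library 3. Members called ranged from 0 to 1 in Inhib_7 (Satb1) and endothelial cells (Satb1), both without the second saline library of 15 d, and in oligodendrocytes (Prox1, without P21 library 1), and from 1 to 2 in excitatory neurons (Sox6, without P21 library 3). Dlx5 ranged from −0.070 to 0.17, Dlx6 from −0.19 to 0.040, Nr2f2 from −0.24 to 0.071, Satb1 in Inhib_2 from −0.26 to 0.012, Sox6 in Inhib_2 from −0.33 to 0.0046 and Sox6 in newly formed oligodendrocytes from −0.090 to 0.14.

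Of the levels in the highest clusters, Dlx1 in Inhib_4 was 315 CPM with saline libraries only and 326 to 354 CPM without single libraries, Dlx2 there 58.8 and 43.3 to 54.4 CPM, and Prox1 there at P60 246 and 199 to 223 CPM. Prox1 in Inhib_4 at P21 was 281.5 CPM as a mean over cells, 283.6 CPM without the largest library and 284 to 305 CPM without single libraries.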
